A study of Rattus norvegicus with 8 samples.

Results

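The cytosolic ribosomal proteins were followed in the livers of 8 Wistar rats aged 21 days. A gene counted as a member when the name of a probe, taken from the array design, began with Rpl or Rps and a digit or was Rplp0, Rplp1, Rplp2 or Rpsa, and Rps6k kinase names were left out. The rule found 149 probes of 86 gene names, among 30367 probes of 26675 genes or unnamed probes on the array. The 4 control animals were born to dams on standard food, and the 4 deficient animals to dams whose diet lacked vitamin B12 and folate, both needed to make methyl donors. The dams received their diet from 1 month before mating until the pups were weaned, so the pups were exposed before birth and while nursing. The strain, age and organ were common to all animals, while the labels gave 1 male and 3 females as controls and 2 males and 2 females as deficient animals. The labels do not say which pups shared a dam, but by the letter in their titles, whose meaning is unstated, 3 controls and 2 deficient animals could be littermates. The p-values measure the spread among these pups and no more. The question was whether the transcripts of the ribosomal proteins differ between the livers of deficient and control pups.

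The cytosolic ribosome consists of a large and a small subunit, each a ribosomal RNA core with many different proteins, and translates the messages made in the nucleus. Vertebrate mRNAs of ribosomal proteins belong to the TOP mRNAs, which start with a C and a run of pyrimidines (C or T in DNA). Through this run, growth signals that pass through mTORC1 control their translation, and the protein is held in balance across the set mostly at that step and by removal of unassembled subunits. In liver these transcripts are among the most abundant.

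RefSeq (assembly GRCr8) start sites were matched by symbol for 67 of the 86 members, in 68 windows since Rps27a had 2. The windows below run from 20 bases before the annotated start to 20 bases after it, 5′ to 3′ on the gene's strand. They are shown because they hold the pyrimidine run that sets this gene family apart, and they cover members at both ends of the range of differences. Capitals mark the longest pyrimidine run within 10 bases of the start.
Rpl11, chr5:153560783-153560822, minus strand: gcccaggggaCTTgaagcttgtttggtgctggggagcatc
Rps27, chr2:177964587-177964626, minus strand: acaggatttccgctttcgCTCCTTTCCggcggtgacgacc
Rps19, chr1:89608668-89608707, plus strand: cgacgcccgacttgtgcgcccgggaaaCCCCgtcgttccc
Rpl13, chr19:68062494-68062533, plus strand: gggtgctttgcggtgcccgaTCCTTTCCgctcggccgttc
Rplp0, chr12:46718371-46718410, minus strand: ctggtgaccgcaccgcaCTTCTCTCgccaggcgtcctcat
Rpl19, chr10:83519044-83519083, plus strand: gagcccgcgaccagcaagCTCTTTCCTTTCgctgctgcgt
Rps21, chr3:187724018-187724057, plus strand: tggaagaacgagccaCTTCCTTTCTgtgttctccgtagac
Rps2, chr10:14251828-14251867, plus strand: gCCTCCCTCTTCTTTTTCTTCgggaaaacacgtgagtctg

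A pyrimidine run of at least 6 bases lay within 10 bases of the annotated start in 76.5% of the 68 member windows and in 28.3% of all 33465 promoter windows. A run of at least 8 bases was found in 67.6% and 13.2%. The stricter form, a C at the annotated start followed directly by 4 more pyrimidines, occurred in 35.3% of member windows and in 2.63% of all. The mitochondrial ribosomal proteins, whose mRNAs are not counted as TOP mRNAs, held the 6-base run in 32.3% of their 65 windows. In the full window of 300 bases (250 before the start and 50 after), searched on both strands, the letters CCGGAAG, the core bound by ETS factors, stood in 30.9% of member windows and 8.74% of all. They stood in 32.3% of the mitochondrial ribosomal protein windows too, so they did not set the members apart from that set. The E-box CACGTG stood in 7.35% of member windows and 6.42% of all. The letters TATAAA, searched on the gene's strand in the 50 bases before the start, stood in 5.88% and 2.26%. Read on the other strand CCGGAAG is CTTCCGG, which begins with a C and 4 more pyrimidines, so such a match can lie in a pyrimidine run. Places where matches meet were not removed, so the shares of these 2 features are not separate. Such matches describe the windows and do not show that a factor binds there.

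RNA was hybridised to 4 Agilent arrays with 2 colours, each carrying 1 control and 1 deficient animal in opposite dyes, Cy3 and Cy5. The deficient animal was in Cy3 on arrays 1 and 3 (deficient 3 with control 1, deficient 4 with control 2) and in Cy5 on arrays 2 and 4 (deficient 1 with control 3, deficient 2 with control 4). Median spot signals lay between 152.5 and 299 against local backgrounds of 33 to 58, and 59.1 to 65.5% of spots were well above background. The number of arrays limits the precision. All 12 hepatocyte markers examined were measured in every group, but their levels differed, with 1 of 12 called higher (Apoa2) and 5 lower (Fgb, Ambp, Tf, Ttr and Serpina1) in deficient livers. The summed hepatocyte level was 20.56 to 20.86 in controls and 20.03 to 20.49 in deficient animals on the log2 scale. Of the 8 neutrophil markers tested 6 were lower, with summed levels of 11.48 to 12.33 in controls and 10.88 to 11.37 in deficient animals. The skeletal muscle markers, of which 1 (Tnnc2) of 5 was called, summed to 9.97 to 10.37 in controls and to 11 to 12.96 in deficient animals, highest in deficient 3. The part of such tissue makeup in the ribosomal protein values was not tested, and in whole liver fewer cells of a type and less RNA per cell cannot be told apart.

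The ribosomal protein transcripts were abundant in every animal. Of the 86 members 83 were tested, those with a signal well above background in 4 or more animals, and each was measured in all 8. The tested members comprised 43 proteins of the large subunit, 3 of its P stalk, 31 of the small subunit, 5 paralogs and the pseudogene name Rps2-ps7. Rpl3l (a paralog of Rpl3 typical of striated muscle), Rps19bp1 (an Rps19-binding protein rather than a subunit) and the pseudogene Rpl27-ps1 were well above background in 0 of the 8 animals and were not tested. The median member lay at the 98.2th percentile of probe brightness, and 78 of the 83 were among the brightest 10% of genes, of which they made up 5.2%. The tested probes of Rpl10l, Rpl15, Rpl7l1, Rps2-ps7 and Rps25 were the dimmer ones. No spot of any member was saturated (0 spots).

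Most ribosomal protein transcripts differed little between the groups, and those that passed the test were all higher in deficient livers. In the limma model, which estimated a diet and a dye effect and took the array as a block, 5 of 83 members (6.02%) were called higher at a Benjamini-Hochberg adjusted p under 0.05, against a background of 4.54% of all 14993 genes tested. None was called lower (0 members, background 6.56%), and in either direction the background was 11.1%. The share of members called higher was thus close to that of all genes, and in either direction it was below it. These calls did not hold when each array's pair of animals was compared as a ratio (0 members called, beside 3.09% of all genes with a dye term and 2.42% without), and with sex as a term 1 member was called, beside 5.42% of all genes. At an unadjusted p under 0.05, 26 members were higher (background 12.9%) and 2 were lower, Rps2 and Rpl7 (background 14.8%). The log2 differences, deficient minus control, had a median of 0.13 with quartiles of 0.01 and 0.20, beside a median of 0.01 and quartiles of -0.14 and 0.14 for all genes. A positive difference was found for 63 members (75.9%), compared with 51.8% of all genes.

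**Figure D1:**
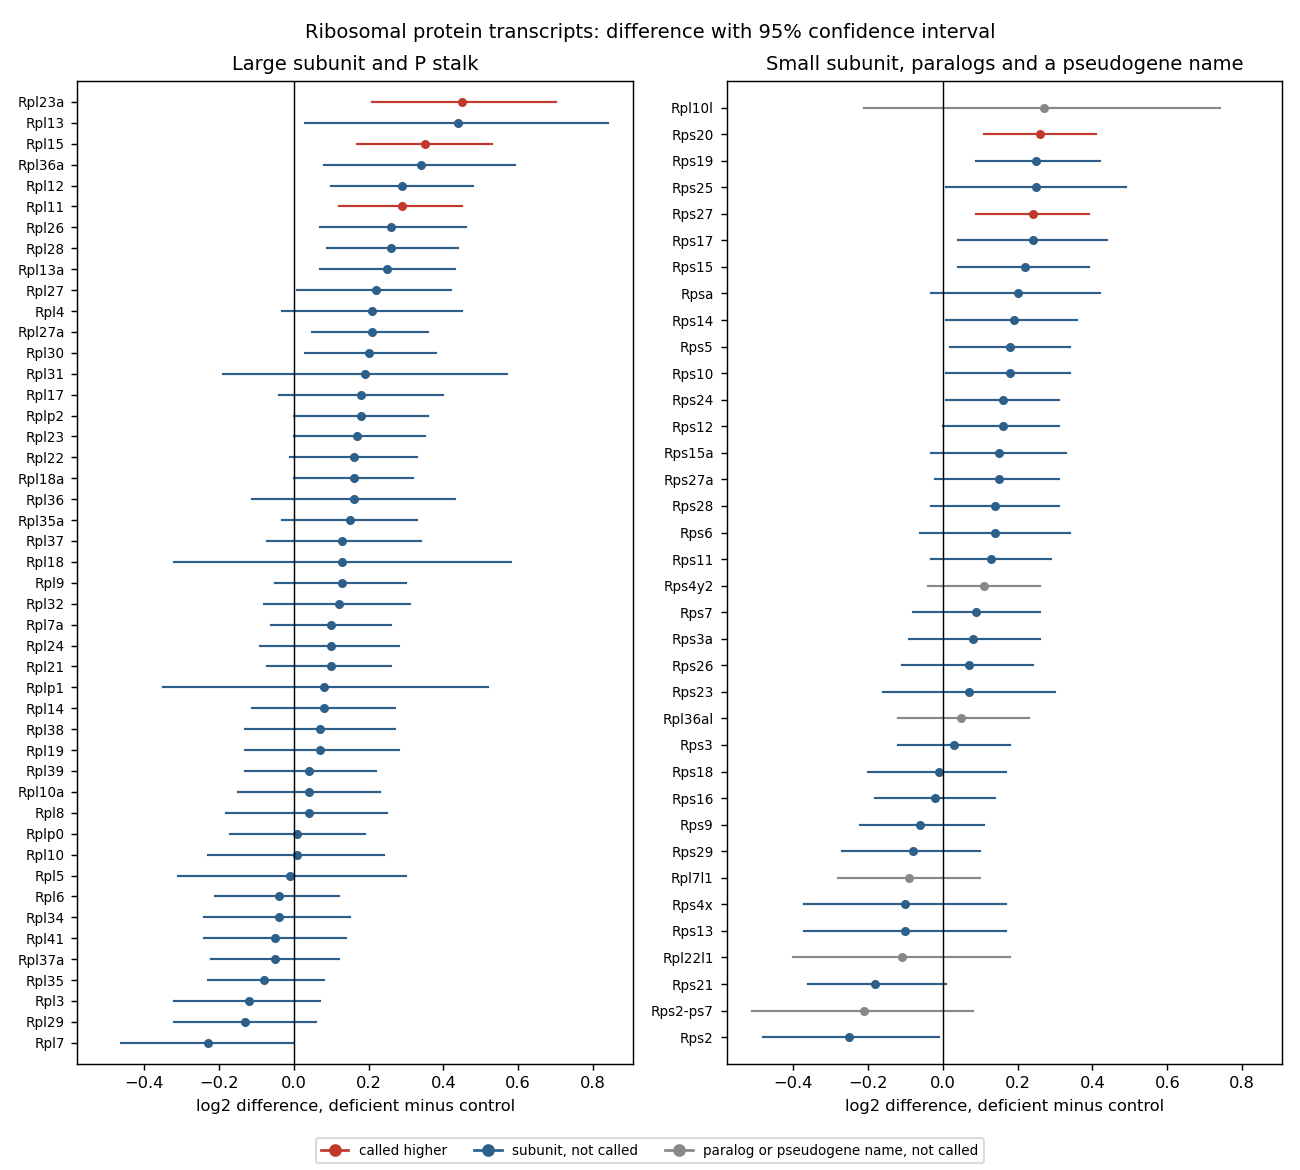
Log2 difference between deficient and control livers for 82 of the 83 tested ribosomal protein genes, with its 95% confidence interval from limma (x axis, log2 units; y axis, genes ordered by their difference; n = 4 animals in each group). Most points lie to the right of 0 and no member lies beyond -0.25 or 0.45; the 5 called genes are in red.

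The differences were small. Members ranged from -0.25 to 0.45, and 0 of 83 exceeded 0.5 in size, against 8.23% of all genes. The 95% confidence interval lay within 0.5 of 0 on both sides for 89.2% of members and 68.7% of all genes. The widest bounds were -0.51 for Rps2-ps7 and 0.84 for Rpl13. The median standard error was 0.08 for members and 0.10 for all genes. These intervals bound the change in single transcripts, whereas a p above the threshold does not show that a member did not differ.

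The 60-base probes of 4 of the 5 called members are given because the calls rest on them. Positions are those of the array design, build rn4. For Rpl23a the second probe is included, which reads another stretch of the transcript.
Rpl23a, chr10:64454047-64454106: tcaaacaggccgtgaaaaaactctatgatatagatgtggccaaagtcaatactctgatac
Rpl23a, second probe, chr10:64452667-64453949, a span of 1283 bases: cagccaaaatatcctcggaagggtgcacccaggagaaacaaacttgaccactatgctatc
Rpl11, chr5:154827297-154827356: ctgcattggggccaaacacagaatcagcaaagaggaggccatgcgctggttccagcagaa
Rps20, chr5:17119979-17120313, a span of 335 bases: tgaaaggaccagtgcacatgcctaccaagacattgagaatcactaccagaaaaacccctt
Rps27, chr2:182451978-182452037: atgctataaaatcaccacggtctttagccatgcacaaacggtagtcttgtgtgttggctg

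Rpl23a, a protein of the large subunit near the exit of the nascent chain, differed most. Its normalized log2 intensity was 13.77, 13.49, 13.62 and 13.8 in controls 1 to 4, and 14.45, 14.18, 13.91 and 13.96 in deficient animals 1 to 4. Every deficient animal lay above every control, with the largest gap on array 2. The means were 13.67 ± 0.14 and 14.12 ± 0.25 (SD, n = 4 each), and the difference was 0.45 ± 0.11 (SE, limma adjusted p = 0.0326), a fold of 1.37. Its second probe gave 0.35 ± 0.12 and was not called.

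Rpl15, a large-subunit protein, was read by a dim probe at chr15:9085404-9085463. Its values were 8.09, 8.06, 7.85 and 7.97 in controls 1 to 4 and 8.42, 8.38, 8.43 and 8.13 in deficient animals 1 to 4. The groups did not overlap, although deficient 4 stood close to the controls. The difference was 0.35 ± 0.08 (SE, limma adjusted p = 0.0275).

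Rpl11 binds 5S ribosomal RNA together with Rpl5 and, when free of the ribosome, holds back Mdm2, the ligase that degrades p53. It read 16.27, 16.23, 16.22 and 16.14 in the controls and 16.75, 16.51, 16.37 and 16.38 in the deficient animals. Controls lay close together and all deficient animals above them, for a difference of 0.29 ± 0.07 (SE, limma adjusted p = 0.043). Its partner Rpl5 read 14.46 to 14.70 in controls and 14.03, 14.81, 14.86 and 14.71 in deficient animals 1 to 4. Deficient 1 was the lowest of the 8 and deficient 2, 3 and 4 the highest, and the difference of -0.01 ± 0.13 (SE) was not called.

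Rps20, of the small-subunit head, read 16.43, 16.34, 16.21 and 16.24 in the controls and 16.65, 16.7, 16.5 and 16.41 in the deficient animals. The groups overlapped, since control 1 lay just above deficient 4, but the deficient animal was the higher one on all 4 arrays. The difference was 0.26 ± 0.07 (SE, limma adjusted p = 0.041). Rps27, a zinc-binding protein of the small subunit, read 16.08, 16.1, 15.92 and 15.97 in the controls and 16.31, 16.39, 16.14 and 16.2 in the deficient animals. Its groups did not overlap, and the difference was 0.24 ± 0.07 (SE, limma adjusted p = 0.0481).

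**Figure D2:**
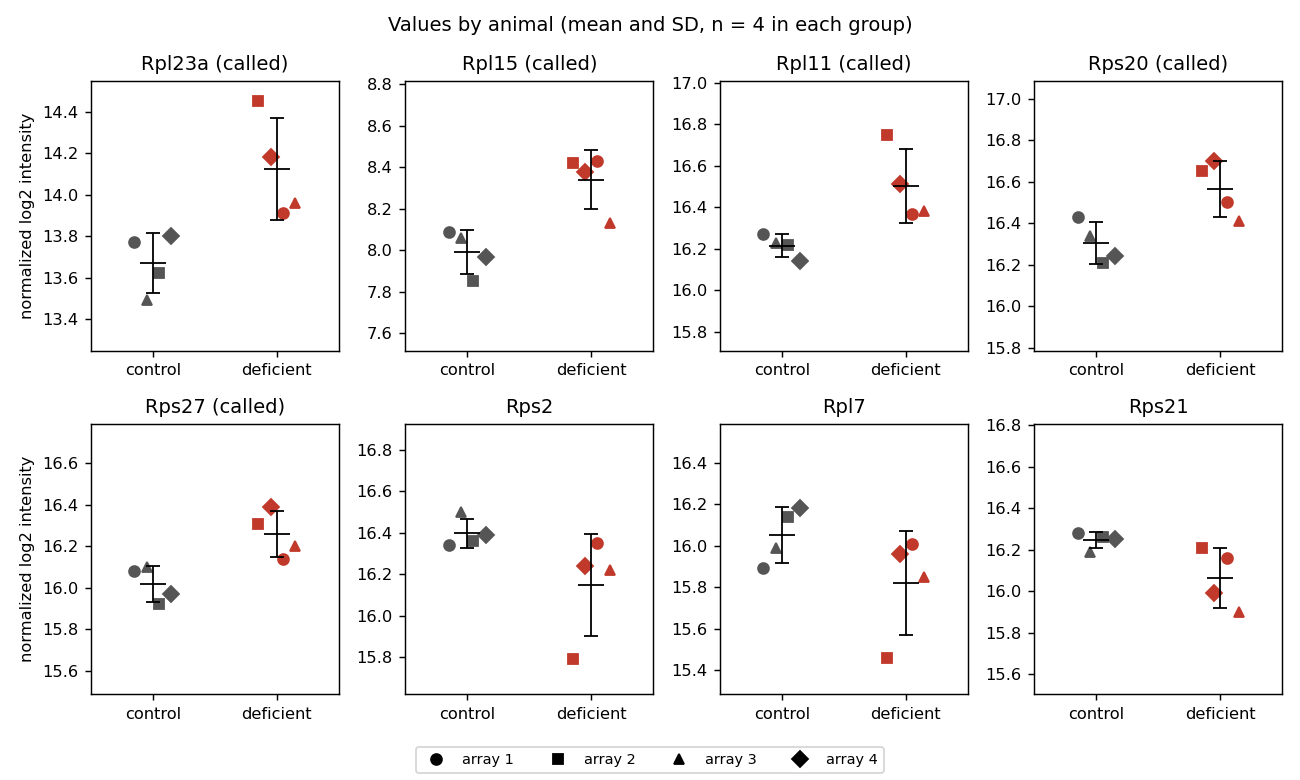
Normalized log2 intensity (y axis, each panel on its own range of equal height) of the 5 called members and of Rps2, Rpl7 and Rps21 in each of the 4 control and 4 deficient animals (x axis). Symbols give the array, and bars the mean and SD over 4 animals. The deficient animals lie higher in the 5 called genes, with Rps20 alone of these overlapping between groups; deficient 1 is the lowest point in Rps2 and Rpl7.

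Each of these calls was lost when single animals were left out. Without control 1, 2 or 3 or deficient 4, 0 members were called, while 4.60%, 3.81%, 2.59% and 3.38% of all genes were. Without control 4 or deficient 3, 1 member was called, beside 6.98% and 11.1% of all genes, and without deficient 1, 5 members were called, beside 10.1%. Without deficient 2, 17 members were called higher and 2 lower, or 22.9% of members, beside 23.8% of all genes. Without array 1, 2 or 3 the count was 0, beside 7.48%, 6.07% and 1.42% of all genes. Without array 4 it was 14 higher and 1 lower, or 18.1% of members, beside 19.2% of all genes. The high member counts thus came where calls rose over all genes. Over these 12 reduced sets Rpl23a was called in 4, Rpl15 in 3 and Rpl11, Rps20 and Rps27 in 2 each. The median difference of the members was less variable, between 0.10 and 0.14 with any animal or array left out. Over all alternatives tried, the adjusted p of the 5 genes ran from 0.0179 to 0.242 for Rpl23a, 0.0190 to 0.298 for Rpl15, 0.0209 to 0.280 for Rpl11, 0.0181 to 0.270 for Rps20 and 0.0317 to 0.309 for Rps27.

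The P stalk, which recruits elongation factors to the large subunit, showed no called difference. Rplp0, its anchor and a common reference gene, read 17.47, 17.49, 17.4 and 17.3 in controls and 17.38, 17.6, 17.43 and 17.29 in deficient animals. The groups covered the same range, with a difference of 0.01 and a 95% interval from -0.17 to 0.19. Rplp2 differed by 0.18 ± 0.08 (SE) and Rplp1 by 0.08 ± 0.19. In Rplp1 both animals of array 1 stood apart from the other 6, control 1 at 15.32 and deficient 3 at 15.5, while the others lay between 16.18 and 16.46.

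In the large subunit 3 of 43 members (6.98%, background 4.54%) were called higher and 0 lower (background 6.56%). The median difference was 0.13, and 34 (79.1%) lay above 0, beside 51.8% of all genes. Rpl13 had the second largest difference, 0.44 ± 0.18 (SE), but its controls ran from 15.36 to 16.24 and its deficient animals from 15.92 to 16.68, and it was not called (limma adjusted p = 0.152). Rpl36a read 14.49 to 14.53 in controls and 15.29, 14.76, 14.59 and 14.74 in deficient animals 1 to 4. The groups did not overlap, but the difference of 0.34 ± 0.11 (SE) had a limma adjusted p of 0.0875. Rpl13a, known also for a role in silencing inflammatory mRNAs, differed by 0.25 ± 0.08 (SE, limma adjusted p = 0.0747).

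At the other end Rpl7 read 15.89, 15.99, 16.14 and 16.18 in controls and 15.46, 15.96, 16.01 and 15.85 in deficient animals. The groups overlapped and deficient 1 was far the lowest. The difference was -0.23 ± 0.10 (SE, limma adjusted p = 0.173), and its other probe gave -0.11. Rpl3, which lies at the peptidyl transferase centre, differed by -0.12 ± 0.09 (SE) and Rpl10, which joins late in large-subunit assembly, by 0.01 ± 0.10. The differences of Rpl32 and Rpl19, both used as reference genes, were 0.12 ± 0.08 and 0.07 ± 0.09 (SE), neither called.

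In the small subunit 2 of 31 members (6.45%, background 4.54%) were called higher and 0 lower (background 6.56%). The median was 0.14, and 23 (74.2%) lay above 0, beside 51.8% of all genes. Rps19, the protein most often mutated in Diamond-Blackfan anaemia, read 15.84, 15.73, 15.72 and 15.91 in controls and 15.92, 16.08, 16.15 and 16.06 in deficient animals with its brightest probe. The groups did not overlap, but by a margin smaller than the spread within either group, and the difference was 0.25 ± 0.07 (SE, limma adjusted p = 0.0572). Rps6, the substrate of S6 kinase, read 15.5, 15.66, 15.36 and 15.66 in controls and 15.47, 15.84, 15.67 and 15.78 in deficient animals. It was higher in the deficient animal on all 4 arrays by 0.10 to 0.18, yet the groups overlapped and the difference of 0.14 ± 0.09 (SE) was not called. The difference of Rps18 was -0.01 ± 0.08 (SE), that of Rps4x, encoded on the X chromosome, -0.10 ± 0.12 and that of Rps27a, made as a fusion with ubiquitin, 0.15 ± 0.07, none of them called.

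Rps2, which lies at the entry of the mRNA channel, read 16.34, 16.5, 16.36 and 16.39 in controls and 15.79, 16.24, 16.35 and 16.22 in deficient animals. Deficient 3 lay among the controls and deficient 1 well below all others. The difference was -0.25 ± 0.10 (SE, limma adjusted p = 0.158), and the other 3 Rps2 probes gave -0.16, -0.16 and -0.32. Rps21 was the 1 member that was lower in the deficient animal on all 4 arrays (background 13.8%). It read 16.28, 16.19, 16.26 and 16.25 in controls and 16.21, 15.99, 16.16 and 15.9 in deficient animals. Deficient 1 overlapped the controls, and the difference of -0.18 ± 0.08 (SE) was not called (limma adjusted p = 0.193).

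Among the 5 tested paralogs 0 were called in either direction (background 11.1%). Rpl22l1, the paralog of Rpl22, differed by -0.11 ± 0.13 (SE) and Rpl36al, a retrogene copy of Rpl36a, by 0.05 ± 0.08. Rpl10l, the autosomal copy of Rpl10 active in the male germ line, read 9.03 to 9.93 in controls and 9.32 to 9.99 in deficient animals, a difference of 0.27 ± 0.21. The pseudogene name Rps2-ps7 gave -0.21 ± 0.13 beside -0.25 for Rps2. Where such copies are nearly identical, their probes may read each other's transcripts, so the paralog values are uncertain. Between member probes of different genes 0 pairs share 15 or more bases in a row, but probes were not compared with whole transcripts.

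Several members had more than 1 probe, which gave a further reading of the same RNA rather than new replicates. Among 47 members with several tested probes, the range of their differences had a median of 0.06, against 0.11 for the 1597 such genes in all, and was under 0.2 in 44. In 10 of the 47 genes the probes share 15 or more bases in a row. With every probe tested on its own, 12 of 143 member probes (8.39%) were called higher, against 4.56% of all 16729 probes, and 0 were called lower (background 6.47%). Both Rps27 probes were among these, as were 2 of 3 for Rps19 (0.35 ± 0.07 and 0.31 ± 0.07, SE) and the dimmer probes of Rpl27 (0.38 ± 0.10), Rpl28 (0.31 ± 0.08) and Rpl17 (0.29 ± 0.07).

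**Figure D3:**
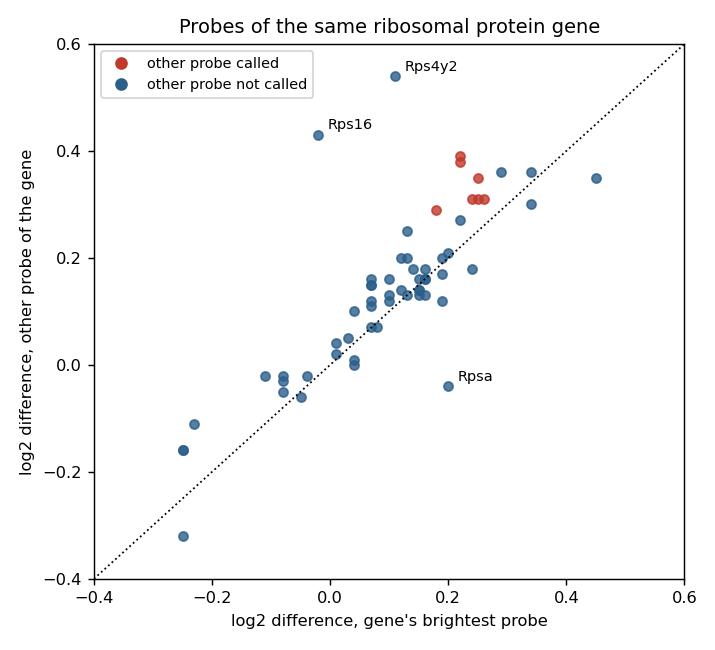
Log2 difference of each further tested probe of a ribosomal protein gene (y axis) against that of the gene's brightest probe (x axis), for 60 pairs of probes; the dotted line marks equal values. Most pairs lie near the line, and the 3 named genes lie farthest from it.

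In 3 genes the probes differed. The brighter Rps16 probe gave -0.02 ± 0.07 (SE). The dimmer one, placed at chr1:83463520-83463579 in rn4, gave 0.43 ± 0.23, with deficient 2 at 11.51 while the other 7 animals lay between 9.93 and 10.49. For Rps4y2 the probes gave 0.11 ± 0.07 and 0.54 ± 0.19, and for Rpsa, which is also the laminin receptor precursor, 0.20 ± 0.10 and -0.04 ± 0.11. Opposite signs occurred in 4.26% of members with several probes and in 27.7% of all such genes.

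The members moved unevenly across arrays. Their median difference was 0.03 on array 1 and 0.01 on array 3, where the deficient animal was in Cy3, and 0.27 on array 2 and 0.20 on array 4, where it was in Cy5. All genes had array medians between -0.01 and 0.01. Of the 83 members, 44, 60, 43 and 64 were above 0 on arrays 1 to 4. The deficient animal was higher on all 4 arrays for 19 members (22.9%, background 13.5%), and the groups did not overlap, with deficient above, for 13 members (15.7%, background 5.52%) and with deficient below for 0 (background 5.97%). Of the other genes in the brightest 10%, 21.4% were higher on all 4 arrays and 9.92% had no overlap with deficient above. In the brightest 2%, where the median member lies, these shares were 10.2% and 5.47%.

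A further 19 members (22.9%) were higher on both arrays with the deficient animal in Cy5 and lower on both with it in Cy3, against 8.21% of all genes and 18.8% of the other genes in the brightest 2%. The reverse was seen in 3 of the 83 members and in 1025 of all 14993 genes. The fitted dye term, Cy5 minus Cy3, had a median of 0.12 over members, 0.01 over all genes and 0.13 over the other genes in the brightest 2%, whose median diet difference was -0.01. It was largest in Rps10 (0.52), Rpl41 (0.47) and Rpl35 (0.47), which were picked out after their values were seen. Each dye orientation held 2 arrays, and the fitted diet difference averages over both orientations. Dye and animal cannot be told apart as sources of the gap between the orientations.

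**Figure D4:**
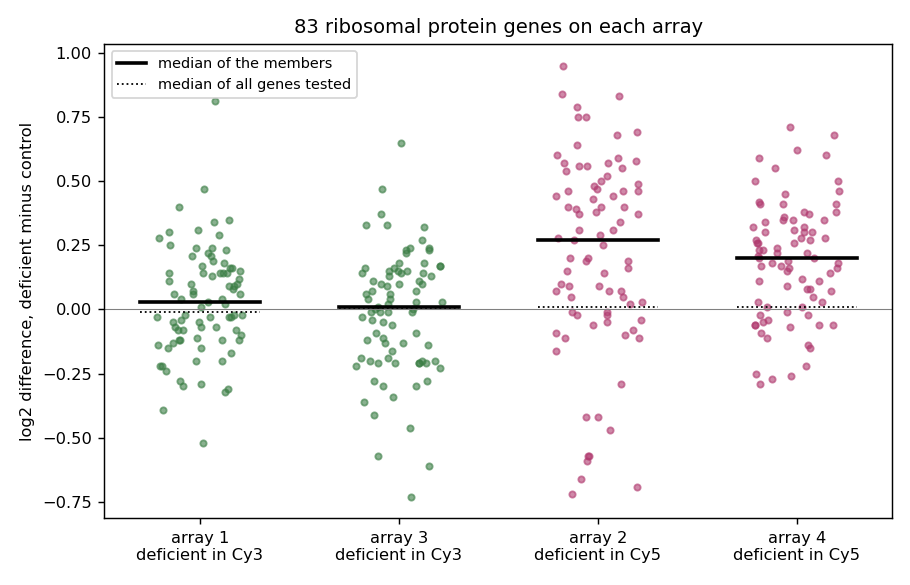
Log2 difference, deficient minus control animal (y axis), of the 83 tested members on each of the 4 arrays (x axis, grouped by the dye of the deficient animal); thick bars are member medians and dotted bars the medians of all genes tested. The member medians are 0.03 and 0.01 with the deficient animal in Cy3 and 0.27 and 0.20 with it in Cy5.

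By animal, each member's values were centred on its own mean over the 8 animals. The median over members was then -0.01, -0.01, -0.09 and -0.11 in controls 1 to 4 and 0.13, 0.12, 0.02 and -0.03 in deficient animals 1 to 4. Deficient 1 and 2, both in Cy5, lay highest, control 3 and 4, both in Cy3, lowest, and deficient 4 fell within the range of the controls. Deficient 1 also had the broadest spread over members, with quartiles of -0.08 and 0.33. Its array, array 2, was the widest over all genes as well, with an SD of the differences of 0.57 against 0.31, 0.40 and 0.42 on arrays 1, 3 and 4, and of 0.38 against 0.21, 0.24 and 0.23 over members.

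The direction of the median held under every processing setting tried, while the number of calls did not. The median lay between 0.12 and 0.25, and that of all genes between -0.04 and 0.02. Quantile normalization over all channels gave 13 members higher, or 15.7%, beside 10.1% of all genes called. Without the loess correction 0 were called, beside 2.05% of all genes, and without the array block 0, beside 2.67%. The deposited table of normalized values gave a median of 0.17 and 0 calls, beside 5.24% of all genes.

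**Figure D5:**
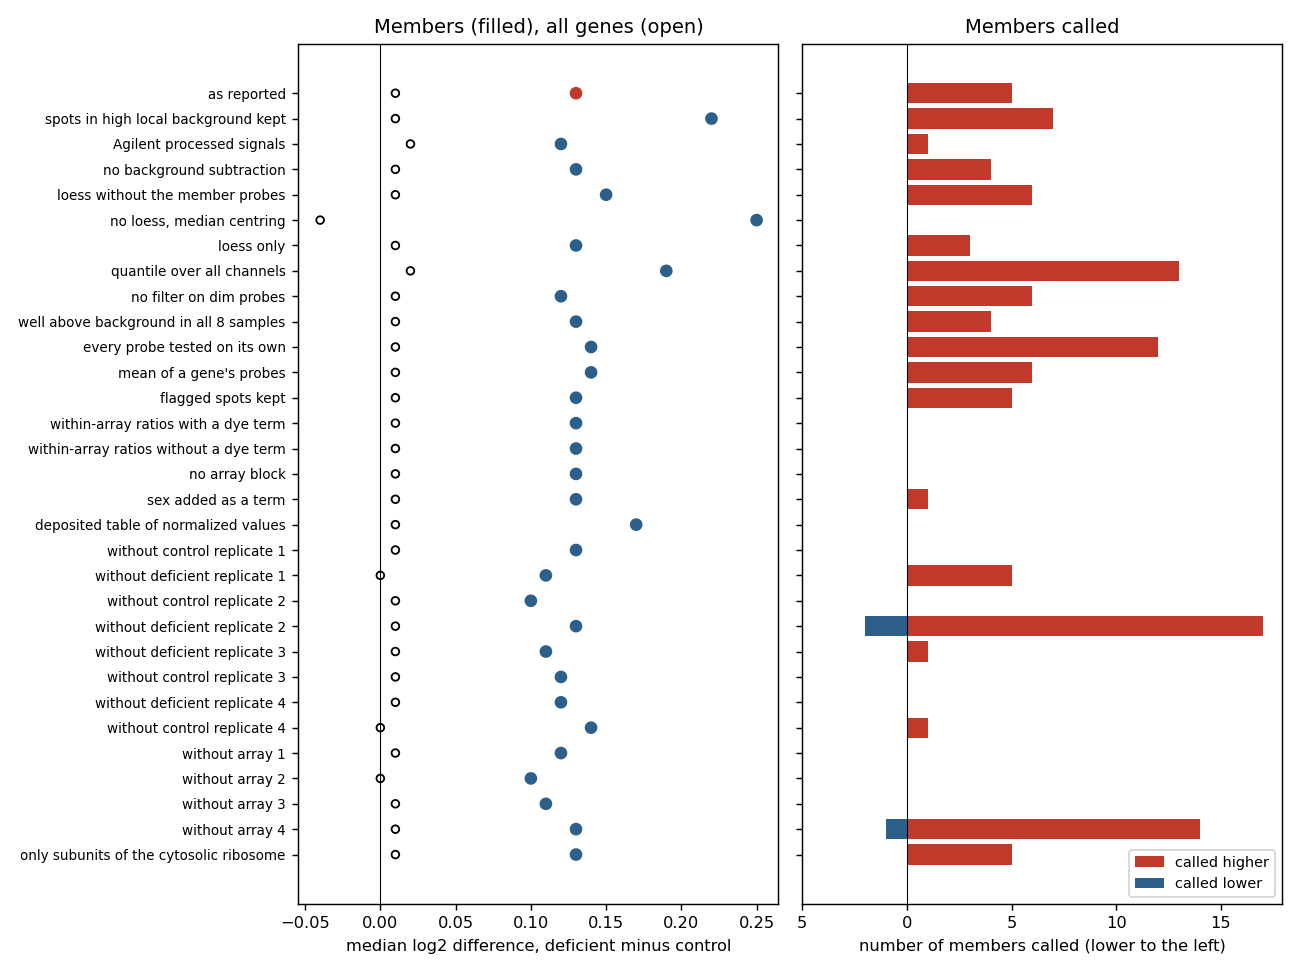
Median log2 difference of the members (filled) and of all genes tested (open) under each processing setting and with each animal or array left out (left panel, x axis in log2 units), and the number of members called higher (right of 0) or lower (left of 0) in the same row (right panel). The member median stays above 0 in every row, from 0.10 to 0.25. Members called higher range from 0 to 17, the 17 being without deficient 2.

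The array carries 181 further tested genes or unnamed probes described as cytosolic ribosomal proteins, mostly predicted copies that the naming rule does not reach. Of these 14 (7.73%, background 4.54%) were called higher and 0 lower (background 6.56%). Their median difference was 0.15, and 143 (79%, beside 51.8% of all genes) lay above 0. On all 4 arrays 76 of them (42%, background 13.5%) were higher in the deficient animal. Their fitted dye term had a median of -0.01, unlike the 0.12 of the members. In 11 of them (6.08%, beside 8.21% of all genes) the deficient animal was higher in Cy5 and lower in Cy3. The reverse was seen in 30 of the 181, beside 1025 of all 14993 genes. Of the 181, 37 share 15 or more bases in a row with a member probe and 5 share 30 or more, so they may in part read the same transcripts. Only probe sequences were compared, so these counts miss probes on another stretch of a member's transcript. How many of the 181 read member transcripts was not tested. The member probes were themselves not always placed at the parent gene. For 7 of the 65 tested members with a RefSeq start, the design did not place the brightest probe in rn4 on the chromosome of the RefSeq start in GRCr8. For Rpl10a, Rpl12, Rpl13, Rpl37a, Rpl38 and Rpl9 it was another chromosome, and their values may include transcripts of copies elsewhere in the genome. For Rpl36 it was unplaced sequence (Un), which does not show whether the chromosomes differ.

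Genes that act with the ribosomal proteins were followed in lists that partly share genes. Over all genes the background was 4.54% called higher and 6.56% lower. Among 89 tested genes of ribosome assembly and ribosomal RNA transcription, 2 (2.25%) were called higher and 0 lower, with a median of 0.05. They were Rrs1, an assembly factor of the large subunit, at 0.39 ± 0.09 (SE, limma adjusted p = 0.0349), and Ipo7, an importin that carries ribosomal proteins into the nucleus, at 0.31 ± 0.08 (SE, limma adjusted p = 0.0456). Among 21 TOP mRNAs that encode no ribosomal protein, 2 (9.52%) were higher and 0 lower, with a median of 0.08. These were Eif4b, a helicase cofactor of initiation, at 0.77 ± 0.12 (SE, limma adjusted p = 0.00623), and Gas5, a spliced host of small nucleolar RNAs, at 0.39 ± 0.10 (SE, limma adjusted p = 0.0394).

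Eif4b was also the 1 call among 41 initiation factors (2.44% higher, 0 lower). Pelo, which rescues stalled ribosomes, was the 1 among 18 elongation and release factors (5.56%), at 0.49 ± 0.10 (SE, limma adjusted p = 0.0183). Of 32 genes that control growth signals to these mRNAs, 1 (3.12%) was called higher and 1 (3.12%) lower. Castor1, an arginine sensor upstream of mTORC1, was higher by 0.47 ± 0.10 (SE, limma adjusted p = 0.0222). Sesn1, a sestrin and p53 target, fell by 0.47 (SE 0.13, limma adjusted p = 0.0487). Fau, whose ribosomal protein is made as a fusion with a ubiquitin-like protein and which the rule does not reach, differed by 0.21 ± 0.07 (SE) and was not called.

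The 72 mitochondrial ribosomal proteins had a median difference of 0.03 with 40 above 0. Of these 1 (1.39%, background 4.54%) was called higher and 1 (1.39%, background 6.56%) lower. Mrpl14 was higher by 0.37 ± 0.09 (SE, limma adjusted p = 0.0349), and Mrps27 fell by 0.42 (SE 0.08, limma adjusted p = 0.0115). Of 13 common reference genes 1 was called, Tfrc, the transferrin receptor, which was higher by 1.55 ± 0.23 (SE, limma adjusted p = 0.00623). The differences of Actb, B2m, Gapdh, Hprt1 and Tbp lay between -0.02 and 0.21, and that of Ppia was -0.42 ± 0.14 (SE), none of them called.

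The differences of members with and without given start-site letters overlapped widely and were not tested. The 24 members whose annotated start is a C followed by 4 pyrimidines had a median difference of 0.08, from -0.08 to 0.26. The 41 tested members without it had a median of 0.13, from -0.25 to 0.44. The 21 members with CCGGAAG had a median of 0.07, from -0.25 to 0.29, and the 44 without it 0.12, from -0.12 to 0.44. For CACGTG the medians were 0.08 over 5 members and 0.11 over 60. Rps27, called higher, and Rplp0, whose difference was 0.01, both hold a run of 8 or more pyrimidines over or beside the start, as printed above, while Rpl11, also called, has a run of only 3 near its annotated start.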

How the data were processed

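Liver RNA of 8 animals was measured as spot intensities on 4 Agilent arrays. The authors deposited these intensities with background and flag columns (other values, such as whether a spot is well above background), made by Agilent Feature Extraction version 10.7.1.1, per the submitters' processing notes, with rn4 probe positions per the file headers. The authors also deposited a table of linear intensities whose normalization was not given in the sources used, and it served as an alternative only.

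With limma 3.58.1 in R 4.3.3, 74 spot values with local background over 5 times the channel median were left out. Mean signals were then corrected by normexp (offset 50), loess within arrays and Aquantile between them, and outlier spots were dropped. Probes well above background in at least 4 of 8 samples were kept, with the brightest probe standing for a gene. The fit estimated diet and dye effects with arrays as blocks (correlation 0.422), p-values were adjusted over all 14993 genes, and called means an adjusted p under 0.05. The script was tested on simulated data. Samples with identical deposited array data were taken to share that array, and replicate numbers follow sample order and pair no animals.

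The named members are those called, the 4 largest and 4 smallest differences, and a list of well-known members. From each gene list up to 3 called genes are named. The members and gene lists were chosen with earlier results of these data known. All other members named, such as those whose probes differ, were chosen after their values were seen. Some single genes are not reported here.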

Additional observations from a re-analysis of the deposited data

Results flagged for a closer look

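In 58 groups of 4 animals, formed by the named members in controls and in deficient animals, the highest or lowest animal was compared with the others by Dixon's ratio, which chance alone passes in about 1 of 20 groups. An animal stood apart in 2 of the 58. Rpl15 in deficient 4 read 8.13, while the other deficient animals lay between 8.38 and 8.43. Rpsa in control 1 read 15.22, while the other controls lay between 14.96 and 15.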

How the results depend on the processing

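The 5 calls among the members and their median of 0.13 were recomputed under each alternative. The median kept its sign in all of them. Fewer members were called higher with Agilent's processed signals (1, beside 8.38% of all genes called) and with sex as a term (1, beside 5.42%). Loess with no step between arrays gave 3, beside 13.1% of all genes. Without background subtraction 4 were called, beside 11.1%. With probes well above background in all 8 samples 4 were called too, beside 11.8%. The count was 0 without loess, with within-array ratios with or without a dye term, without the array block and with the deposited table. In those settings 2.05 to 5.24% of all genes were called. More were called with quantile normalization (13, beside 10.1% of all genes). The count was 6 with loess fitted without the member probes (beside 11.1%) and with the mean of a gene's probes (beside 11.1%). It was also 6 of 86 members with no filter on dim probes (beside 5.23%). With every probe tested on its own 12 of 143 probes, from 10 genes, were called, beside 11% of all probes. Leaving out 1 animal gave 0 to 17 members higher and 0 to 2 lower, while the share of all genes called ran from 2.59 to 23.8%. Leaving out array 1, 2 or 3 gave 0, and array 4 gave 14 higher and 1 lower, beside 1.42 to 19.2% of all genes. Fits on fewer animals or ratios have fewer degrees of freedom, and otherwise the cause was not tested. Animals are paired only by sharing an array: the fit as reported takes that pairing as a block, and the within-array ratios test it directly, with a median of 0.13. Keeping the spots in high local background gave 7 higher, beside 6.39% of all genes called, and a median of 0.22.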
